A study of Mus musculus with 2 samples.

Results

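The genes described are 10 transcription factor and nuclear receptor genes of the hepatoblast, the bipotent progenitor of hepatocytes and bile duct cells in the fetal liver: Hnf4a, Foxa1, Foxa2, Foxa3, Prox1, Cebpa, Onecut1, Onecut2, Nr5a2 and Nr1h4. Their members on the array were the probe sets whose platform annotation names exactly 1 gene symbol that is one of these, which gave 21 of the 34945 probe sets with a single symbol, and 10 of 18193 genes. No member shared a probe set with a gene of another symbol, since 0 probe sets with several symbols named one of them. RNA was measured on Affymetrix mouse arrays in wild-type C57Bl6 embryos at E12.5. One array held mesothelial cells, the flat epithelium on the surface of the organ, taken by FACS as liver cells carrying podoplanin (Pdpn) after trypsin-EDTA digestion. The other array held liver cells of the same age, genotype and strain, for which the labels record neither a sort nor a removal of cells with Pdpn, nor the number of embryos in either sample. A free-text label speaks of far younger embryos, and the stated stage was used. As there was 1 array per group and no replicate, no difference could be tested, and each value describes these 2 arrays.

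These genes form a network. HNF4A, NR5A2 (also called LRH-1) and NR1H4 (the bile acid receptor FXR) are nuclear receptors, FOXA1, FOXA2 and FOXA3 are forkhead proteins that can open closed chromatin, and CEBPA, PROX1, ONECUT1 (HNF6) and ONECUT2 are a bZIP factor and homeodomain factors. Together they are known to bind the regulatory DNA of plasma protein, lipid and bile acid genes and of one another. Mesothelium is of mesodermal origin and hepatoblasts are of endodermal origin, and most of these factors are textbook markers of the endodermal side.

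As deposited, 8 of the 10 genes read higher in the mesothelial sample and 2, Onecut1 and Onecut2, read higher in the liver sample. Hnf4a, Nr1h4 and Foxa3 were 3.04-fold, 3.21-fold and 2.46-fold higher in mesothelial cells. Foxa1, Foxa2, Prox1, Cebpa and Nr5a2 were between 1.30-fold and 1.70-fold higher, and Onecut1 and Onecut2 were 1.80-fold and 1.68-fold higher in liver cells. A gene with several probe sets takes the one with the highest mean log2 intensity. Differences are log2 intensity in mesothelial cells minus log2 intensity in liver cells. The typical gene was itself brighter on the mesothelial array: the median difference over all genes was 0.66, or 1.58-fold, and that over the 10 factors was 0.71. A gene counts as above the floor where at least 1 of its values reaches the median intensity of its array, 65.8 in mesothelial cells, against 42.3 in liver cells, and all 10 did. A gene above the floor is called mesothelial-high or liver-high where one intensity is 2 times the other or more. Of the 10 factors 3 were mesothelial-high, against 45.4% of all 12018 genes above the floor, and 0 were liver-high, against 3.83%. By any amount, 8 of the 10 read higher in mesothelial cells, against 84% of all genes. Over the genes above the floor, which the histogram of differences shows, the median difference was 0.90, and that of the 10 factors lay below it, with the ONECUT pair towards the liver side.

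**Figure D1:**
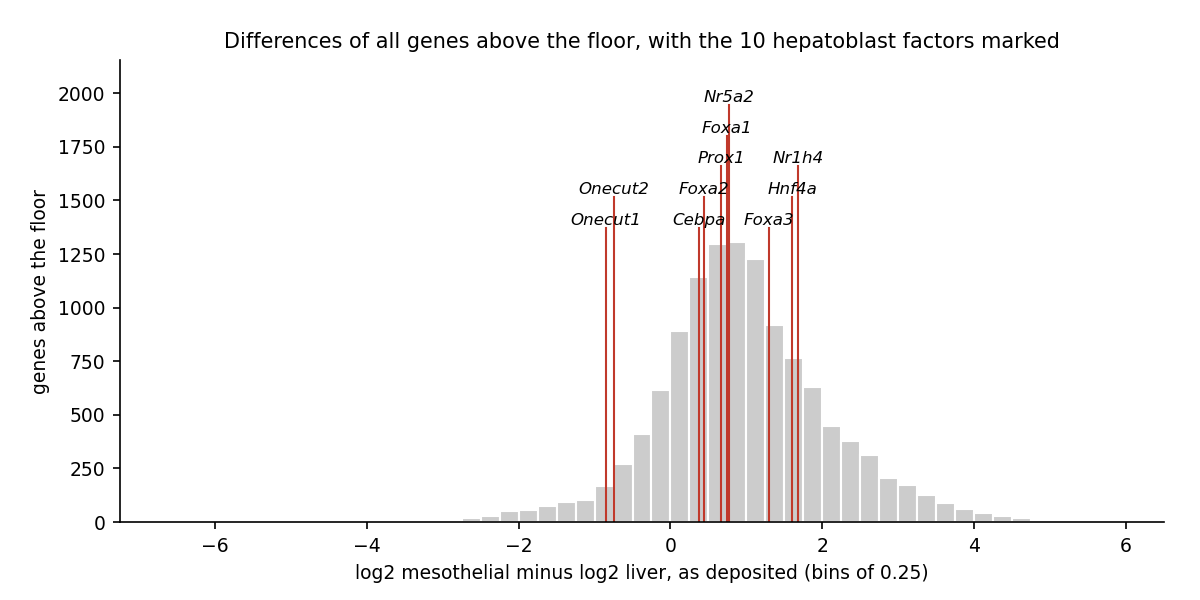
Number of genes above the floor (vertical axis) by log2 difference, mesothelial minus liver, as deposited (horizontal axis, bins of 0.25), with red lines at the 10 hepatoblast factors. Hnf4a, Nr1h4 and Foxa3 lie to the right of the peak, 5 factors lie within or to the left of it, and Onecut1 and Onecut2 lie in the left tail.

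The arrays' scale bears on every sign. Besides the deposited values, 6 other scalings were computed: centring each array on its own median (an offset of 0.64), on the per-array median of 9 reference genes (1.11) or of 18 hybridisation controls (1.08), removing the median paired difference of those reference genes (0.43) or controls (0.02), and quantile normalization. Under all 7, Hnf4a, Nr1h4 and Foxa3 stayed on the mesothelial side and Onecut1 and Onecut2 on the liver side. Apart from quantile normalization, each scaling moves every difference by the same amount, so the scalings are not independent checks of a sign. The Foxa3 difference fell as low as 0.18, when centred on reference genes. The signs of Foxa1, Foxa2, Prox1, Cebpa and Nr5a2 turned with the scaling. Centring on array medians left Nr1h4 as the 1 mesothelial-high factor, against 23.9% of all genes, and made both ONECUT genes liver-high, against 9.25%. The ONECUT genes were also the 2 liver-high factors by quantile normalization (11.1% of all genes), by centring on reference genes (19%) or hybridisation controls (17.9%) and after removing the paired difference of reference genes (6.71%). The mesothelial-high factors under these 4 scalings numbered 1 (20.7% of all genes), 0 (14%), 0 (14.6%) and 2 (29.3%). Removing the paired difference of hybridisation controls left 3 mesothelial-high (44.6%) and 0 liver-high (3.95%) factors, as deposited. With the deposited scale, the median over a gene's probe sets gave 3 mesothelial-high (39.1%) and 1 liver-high (3.82%), and dropping the sets that end in _x_at or _s_at gave 3 (43.4%) and 0 (3.98%). With no floor the mesothelial-high and liver-high numbers were 3 (36.2%) and 0 (4.16%), with a floor at the 75th percentile 1 (42.9%) and 0 (2.42%), and at a threshold of 4-fold 0 (15.9%) and 0 (1.07%).

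**Figure D2:**
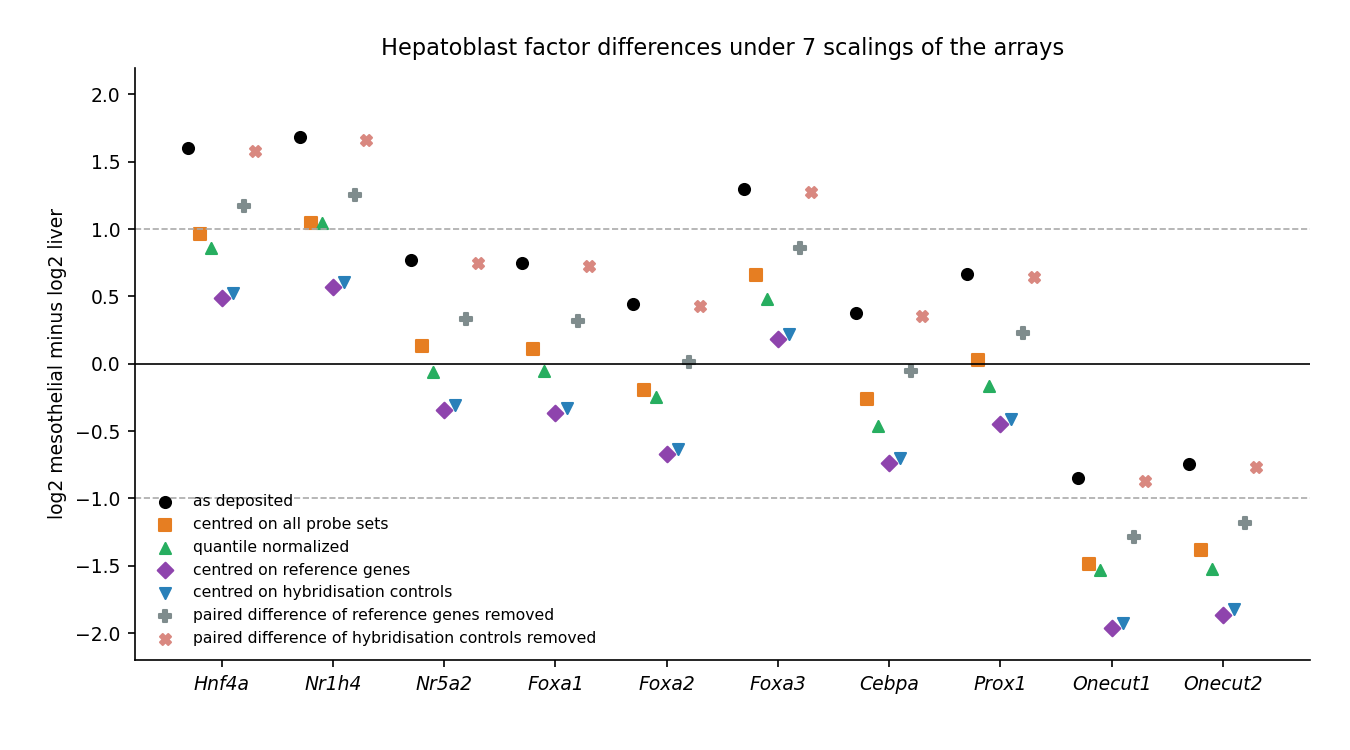
Log2 difference, mesothelial minus liver (vertical axis), of each of the 10 genes (horizontal axis) under 7 scalings of the 2 arrays, 1 marker per scaling. Dashed lines mark a 2-fold difference. Hnf4a, Nr1h4 and Foxa3 stay above 0, Onecut1 and Onecut2 below 0, and the other 5 genes cross it.

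The sequences before the start sites of the genes furthest to either side are shown to place the binding motifs of the network. They are RefSeq sequences of GRCm38.p6, from 250 bases before to 50 bases after a gene's start, in the gene's own direction. RefSeq sequences were matched for 9 of the 10 genes, with 14 start sites, and for Onecut2 there was none. Capitals mark a match, on either strand, to one of these motifs: CAAAGTCCA (HNF4), TGTTTAC or TGTTTGC (FOXA), ATCAAT (ONECUT), TTGCNNAA (CEBP), CAAGGNCA (NR5A2) and the FXR inverted repeat with a spacer of 1 base. Hnf4a, known for a pair of alternative promoters, has 2 start sites 40.3 kb apart on the + strand, at chr2:163506607-163506906 and chr2:163546905-163547204. Nr1h4 lies at chr10:89506609-89506908 on the - strand, Foxa3 at chr7:19023490-19023789 on the - strand and Onecut1 at chr9:74861671-74861970 on the + strand.
Hnf4a, upstream start: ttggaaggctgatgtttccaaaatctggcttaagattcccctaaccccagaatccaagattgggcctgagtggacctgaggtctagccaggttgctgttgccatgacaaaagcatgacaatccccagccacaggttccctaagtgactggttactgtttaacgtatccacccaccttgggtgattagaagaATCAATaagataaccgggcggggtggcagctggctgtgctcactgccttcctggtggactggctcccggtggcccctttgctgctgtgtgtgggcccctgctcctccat
Hnf4a, downstream start: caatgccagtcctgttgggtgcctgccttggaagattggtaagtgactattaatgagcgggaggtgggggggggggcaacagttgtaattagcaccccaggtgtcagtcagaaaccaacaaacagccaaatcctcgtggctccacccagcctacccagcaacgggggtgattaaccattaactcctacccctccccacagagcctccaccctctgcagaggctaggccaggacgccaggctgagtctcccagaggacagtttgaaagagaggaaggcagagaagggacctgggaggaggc
Nr1h4: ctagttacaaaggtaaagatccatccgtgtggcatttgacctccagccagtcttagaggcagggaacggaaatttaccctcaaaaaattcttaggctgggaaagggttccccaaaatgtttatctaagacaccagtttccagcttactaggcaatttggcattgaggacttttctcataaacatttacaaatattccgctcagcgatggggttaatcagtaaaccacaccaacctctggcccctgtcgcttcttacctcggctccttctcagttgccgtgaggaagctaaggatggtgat
Foxa3: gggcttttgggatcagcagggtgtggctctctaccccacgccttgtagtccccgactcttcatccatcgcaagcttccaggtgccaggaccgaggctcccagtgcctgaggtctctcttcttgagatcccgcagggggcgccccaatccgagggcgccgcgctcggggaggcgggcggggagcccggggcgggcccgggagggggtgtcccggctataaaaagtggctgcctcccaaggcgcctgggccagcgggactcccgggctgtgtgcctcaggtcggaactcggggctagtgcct
Onecut1: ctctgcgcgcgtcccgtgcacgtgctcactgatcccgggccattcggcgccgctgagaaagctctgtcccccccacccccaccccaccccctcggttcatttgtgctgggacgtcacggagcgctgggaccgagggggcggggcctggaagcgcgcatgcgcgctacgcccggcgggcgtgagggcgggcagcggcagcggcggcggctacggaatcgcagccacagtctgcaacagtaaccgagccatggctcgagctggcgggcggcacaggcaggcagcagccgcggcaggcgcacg

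The upstream Hnf4a start held 1 ONECUT motif 59 bases upstream of the start, and the other 4 sequences held none of the motifs searched. The starts of Foxa3 and Onecut1 were rich in G and C, at 69.0% and 73.0%, against a median of 52.7% over all promoters. The ONECUT motif was in 2 of the 14 start regions of these genes and in 7.54% of all 32851 promoters of that length, TGTTTAC in 1 and 3.65%, TGTTTGC in 1 and 5.07%, and the CEBP motif in 1 and 10.8%. The HNF4, NR5A2 and FXR motifs were in 0 of 14, and in 0.475%, 6.71% and 0.00913% of all. A match describes the letters and does not show binding.

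Among the nuclear receptors, Hnf4a, a regulator of hepatocyte identity, read higher in mesothelial cells with all 4 of its probe sets as deposited. The brightest, 1427001_s_at, read 2932 in mesothelial cells, against 965.4 in liver cells, a difference of 1.60. The second, 1427000_at, was designed to the same accession and read 134 in mesothelial cells, against 35 in liver cells, a difference of 1.94. The sets of this pair differed widely in brightness, and both were mesothelial-high. The other pair also shared an accession: 1421983_s_at read 66.4 in mesothelial cells, against 28.1 in liver cells, a difference of 1.24, and 1450447_at gave 37.6 in mesothelial and 22.4 in liver cells, a difference of 0.75. The last lay under the floor, and its difference turned to -0.37 when centred on reference genes and -0.33 on hybridisation controls. The SD of the 4 deposited differences was 0.51. Probe sets ending in _s_at can match more than 1 transcript. Without them Hnf4a was represented by 1427000_at, which was 3.83-fold higher in mesothelial cells. By rank, the brightest set stood at percentile 96.5 of all probe sets on the mesothelial array and 93.0 on the liver array, and 1427000_at at 61.6 on the mesothelial and 46.1 on the liver array. Each of the 4 sets ranked higher among mesothelial than among liver probe sets.

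Nr1h4, the receptor that senses bile acids, had 1 probe set, which read 103.4 in mesothelial cells, against 32.2 in liver cells. The difference of 1.68 was the largest of the 10 genes, and 2715 of the 12018 genes above the floor had a larger one. For Hnf4a that number was 2975. Nr1h4 ranked at percentile 57.5 on the mesothelial array and 44.2 on the liver array, so it was above the floor only through the mesothelial value.

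Nr5a2, a receptor that acts in bile acid and cholesterol handling, read higher in mesothelial cells with all 4 probe sets as deposited, by smaller amounts. The sets 1420410_at and 1449706_s_at read 287.9 and 87.3 in mesothelial cells, against 168.9 and 51.2 in liver cells, and both differed by 0.77. The sets 1456521_at and 1449707_at read 222.7 and 51.4 in mesothelial cells, against 185.7 and 45.3 in liver cells, and differed by 0.26 and 0.18. The SD of the 4 differences was 0.32. Against the median of all genes, 2 of the sets were thus 0.11 higher and the others 0.40 and 0.48 lower, so Nr5a2 was close to the typical gene.

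**Figure D3:**
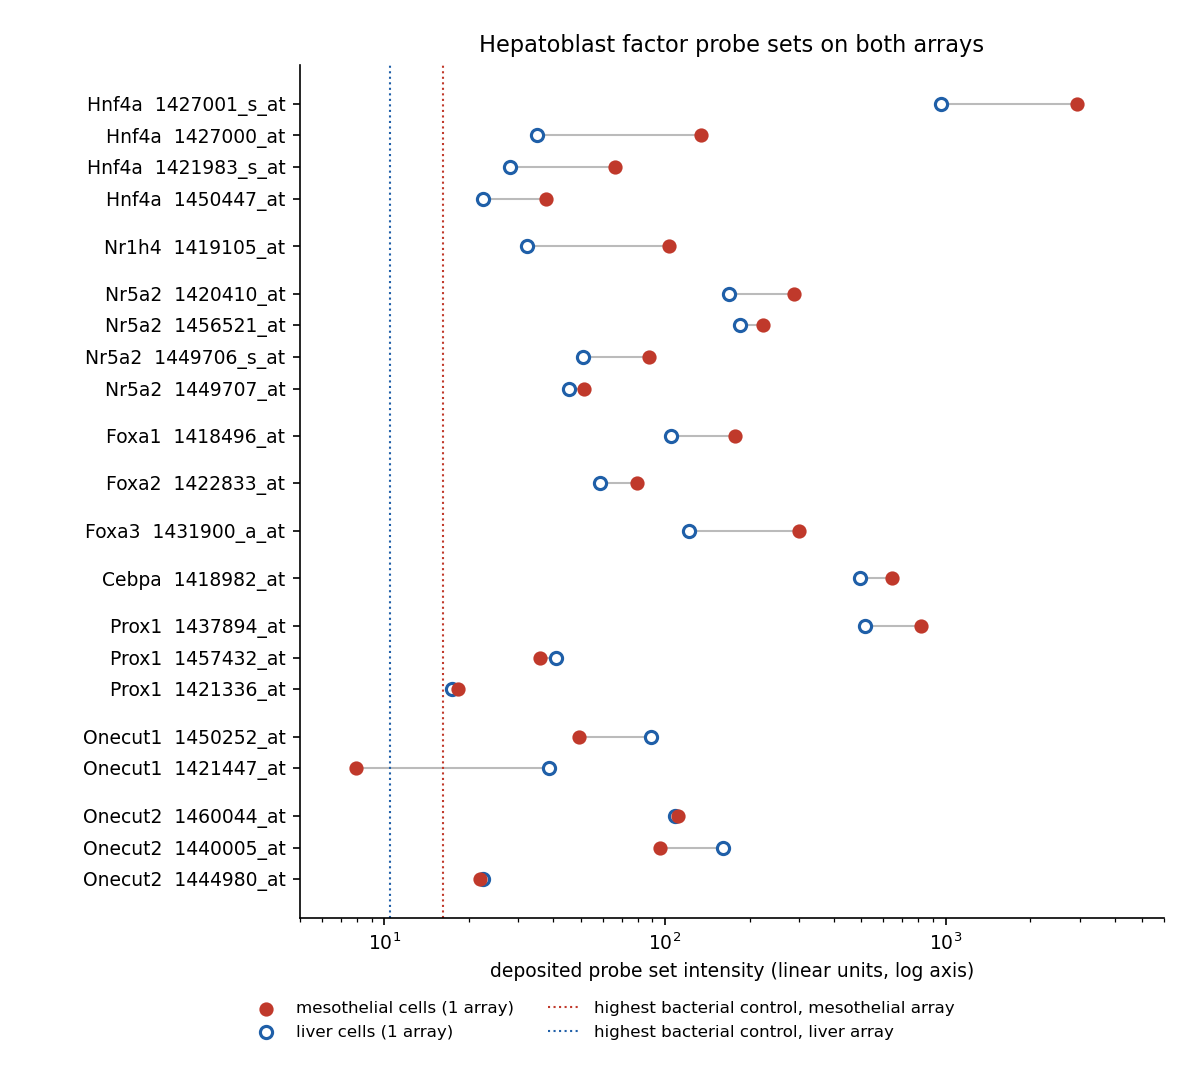
Deposited intensity (horizontal axis, linear units on a log scale) of all 21 probe sets, grouped by gene, in mesothelial cells (filled red) and liver cells (open blue), 1 array each. Dotted lines mark the highest bacterial control of each array, 16.2 in mesothelial and 10.5 in liver cells. All 4 Hnf4a sets are higher in mesothelial cells, both Onecut1 sets are higher in liver cells, and the dimmer Onecut1 set lies under the control level in mesothelial cells.

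The 3 forkhead genes each had 1 probe set and read higher in mesothelial cells as deposited. Foxa3, known to support glucose and lipid genes in later liver, read 299.2 in mesothelial cells, against 121.8 in liver cells, a difference of 1.30. Foxa1, which acts with Foxa2 in liver specification, read 177.1 in mesothelial cells, against 105.4 in liver cells, a difference of 0.75. Foxa2 read 79.7 in mesothelial cells, against 58.5 in liver cells, a difference of 0.45. The gap of 0.85 between the differences of Foxa3 and Foxa2 does not depend on a constant offset between the arrays. It is smaller than 0.99, the SD of a gap between 2 probe sets that follows from 0.70, the pooled SD of differences among probe sets of 1 gene over the 5323 genes with several probe sets above the floor. The order of the 3 forkhead differences therefore lay within the spread between probe sets. That spread compares probe sets on the same 2 arrays and holds no variation between embryos, sorts or amplifications. Foxa3 ranked higher on the mesothelial array, at percentile 73.7 against 68.8 on the liver array. On the mesothelial array Foxa1 and Foxa2 ranked at percentiles 65.9 and 53.3, slightly below their 66.5 and 56.3 on the liver array.

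Cebpa, a bZIP factor of hepatocyte metabolism that is also known in granulocyte precursors, read 641.4 in mesothelial cells, against 494.2 in liver cells. Its difference of 0.38 was the smallest of the 8 genes that read higher in mesothelial cells, and 8654 genes had a larger one. Relative to the median of all genes it was -0.29, and its percentile was 83.8 on the mesothelial array and 87.3 on the liver array. Prox1, a homeodomain factor that hepatoblasts need to migrate from the liver bud, had 3 probe sets that went different ways. The brightest, 1437894_at, read 819.3 in mesothelial cells, against 516.5 in liver cells, a difference of 0.67 that equals the median of all genes within 0.01. The set 1457432_at read 35.9 in mesothelial cells, against 40.8 in liver cells, and 1421336_at gave 18.3 in mesothelial and 17.4 in liver cells. Both dim sets lay under the floor, the second just above the control level of 16.2 on the mesothelial array. All 3 ranked lower on the mesothelial array.

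The ONECUT factors, which act in liver bud growth and in the choice between hepatocyte and bile duct fate, were the exception. Onecut1 read 49.5 in mesothelial cells, against 89.3 in liver cells with 1450252_at, a difference of -0.85. Onecut1 was thus above the floor only through the liver value. With 1421447_at it read 7.9 in mesothelial cells, under the control level, and 38.6 in liver cells, which bounds the liver excess at 2.38-fold or more. That set lay under the floor on both arrays. The 2 sets, designed to the same accession, were unlike in size and alike in direction. By rank they stood at percentiles 45.1 and 9.13 on the mesothelial array, against 63.8 and 48.1 on the liver array. Onecut2 had 3 probe sets. The set 1440005_at read 96.0 in mesothelial cells, against 161.2 in liver cells, a difference of -0.75. The sets 1460044_at and 1444980_at read 111.4 and 21.9 in mesothelial cells, against 108.5 and 22.4 in liver cells, differences of 0.04 and -0.03. The liver-side difference of Onecut2 thus rested on 1 of its 3 sets as deposited, while all 3 ranked lower on the mesothelial array. Only 15 named genes lay within 0.25 of Onecut2 in the plane of the 2 log2 values and 25 of Onecut1, against 63 to 207 for the other members above the floor. These counts come from the same 2 values as the differences, with 1440005_at for Onecut2, and are not separate support for them. Of the 12018 genes above the floor, 11463 had a larger difference than Onecut1 and 11386 than Onecut2. Their paralogue Onecut3 lay under the floor at 20.7 in mesothelial cells and 18.6 in liver cells.

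**Figure D4:**
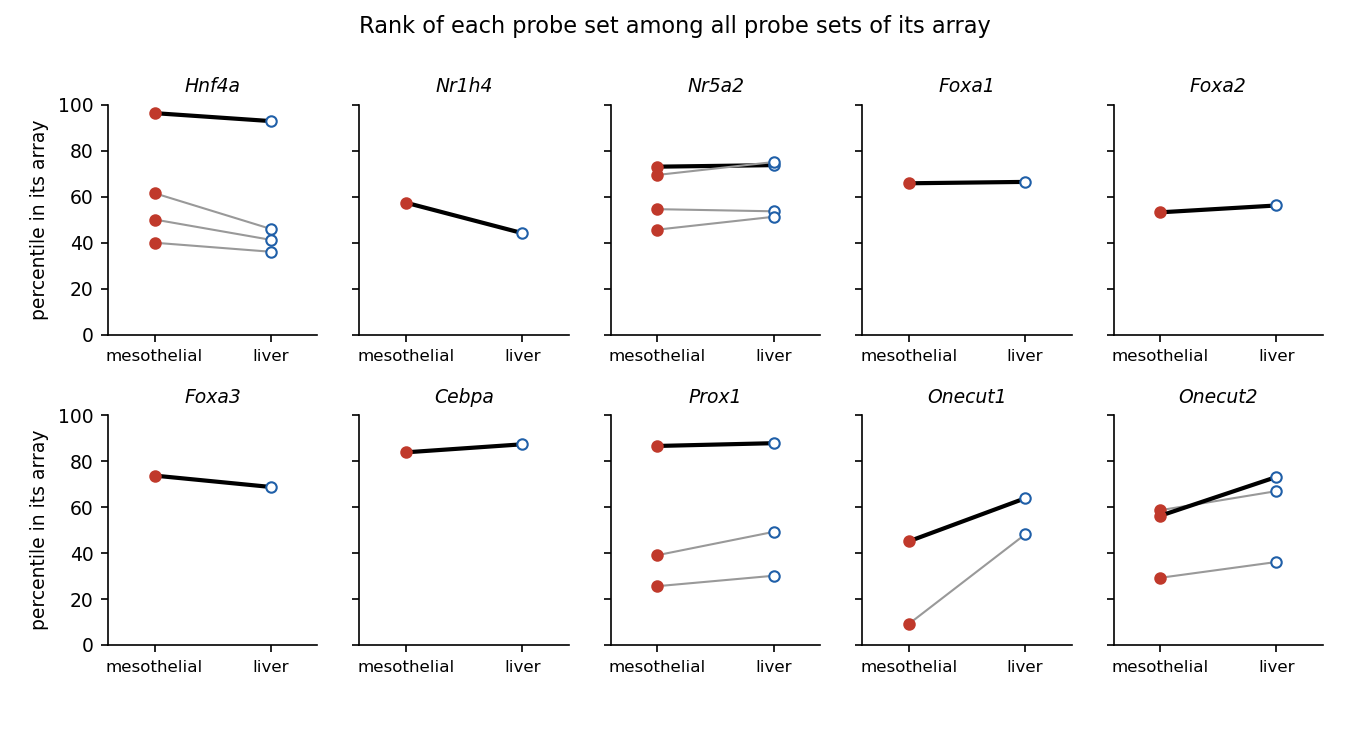
Percentile of each probe set among all 45101 probe sets of its array (vertical axis), on the mesothelial array (left, red) and the liver array (right, blue), 1 panel per gene. The black line is the probe set used for the gene and grey lines are its other sets. Lines of Hnf4a, Nr1h4 and Foxa3 slope down towards liver and those of Onecut1 and Onecut2 slope up.

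Over all 21 probe sets, 16 read higher in mesothelial cells and 5 in liver cells, with a median difference of 0.45. Of the 16 above the floor 5 were mesothelial-high, against 38.4% of all probe sets above the floor, and 0 were liver-high, against 6.09%. After centring on array medians 10 read higher in mesothelial cells and 11 in liver cells. By quantile normalization 7 read higher in mesothelial and 14 in liver cells. Centring on reference genes or on hybridisation controls turned the split to 5 in mesothelial cells and 16 in liver cells. Removing the paired difference of reference genes gave 11 and 10, and that of the controls 16 and 5. As deposited, 84% of all genes above the floor read higher in mesothelial cells. That share was not computed for single probe sets or for the other scalings. The median difference of all genes was 0.03 after centring on array medians and 0.07 by quantile normalization. It was -0.45 and -0.41 by centring on reference genes and controls, and 0.23 and 0.64 after removing their paired differences. By rank, 7 of the 21 probe sets stood higher on the mesothelial array: the 4 of Hnf4a, those of Nr1h4 and Foxa3, and 1449706_s_at of Nr5a2. The last did so by only 0.93 of a percentile. The share of all probe sets that stood higher by rank was not computed, so the count is a description only.

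RNA of hepatocyte-lineage genes was abundant in both samples, and the mesothelial sort was not free of it. The plasma protein genes Alb (albumin), Ttr (transthyretin) and Afp (alpha-fetoprotein) gave 15683, 13600 and 13191 in mesothelial cells, against 12832, 8773 and 10376 in liver cells. Over 24 measured hepatocyte genes that these factors are known to drive, the summed intensity was 103030 in mesothelial cells, against 70233 in liver cells. Their median difference was 0.60, and of 17 above the floor 3 were mesothelial-high and 1 liver-high, against 45.4% and 3.83% of all genes. Set against that median, which removes any constant offset between arrays, Hnf4a was higher by 0.998, Nr1h4 1.08 and Foxa3 0.69. Foxa1, Foxa2, Prox1, Cebpa and Nr5a2 lay between -0.23 and 0.16 of it, and Onecut1 and Onecut2 were at -1.46 and -1.35. Each of these values rests on 1 probe set, and the pooled SD of differences among probe sets of 1 gene was 0.70. Foxa3 lay within that SD. The deposited differences of the Hnf4a sets ran from 0.75 to 1.94, and those of the Onecut2 sets not used here were 0.04 and -0.03. In bulk samples, fewer cells of a type and less RNA per cell cannot be told apart. How much of each factor's signal came from hepatoblasts in the sort was not tested.

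The sort itself was visible in the mesothelial markers. Pdpn, on which the cells were sorted, read 3877 in mesothelial cells, against 100 in liver cells, and the mesothelial regulator Wt1 gave 1994 in mesothelial and 102 in liver cells. All 12 mesothelial genes above the floor, of 13 measured, were mesothelial-high, against 45.4% of all genes. Several, among them Muc16, Rspo1 and Tbx18, at 6.8, 6.8 and 30.1 in liver cells, passed the floor only through the mesothelial value. The list also holds Pdpn itself, so this count describes the sort and is not a test of it. The summed intensity of the 13 was 27545 in mesothelial and 3767 in liver cells. The summed intensity of red cell genes went the other way, at 18667 in mesothelial cells, against 41736 in liver cells. Of the 11 measured 6 were liver-high, against 3.83% of all genes, and 0 were mesothelial-high, against 45.4%. Not all of them were lower in the sort: Gata1 and Tal1 read 2464 and 2468 in mesothelial cells, against 2014 and 2121 in liver cells. Klf1 and Epor were each 1.16-fold higher in liver cells. The part of these shifts in the differences of the factors was not tested.

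Other genes of the hepatic network had a higher median difference than the 10 factors. Of 13 other hepatic factors above the floor, 11 were mesothelial-high and 0 liver-high, against 45.4% and 3.83% of all genes, and the median difference of the 14 measured was 1.37. After centring on array medians the numbers were 4 and 0, against 23.9% and 9.25%, so the mesothelial-high share was then close to that of all genes. Gata4 and Gata6, zinc finger factors known in both liver bud endoderm and the surrounding mesoderm, exceeded liver cells by 11.3-fold and 10.1-fold (SDs of 1.21 between 2 and 0.67 between 3 probe sets). Creb3l3, a membrane-bound factor of lipid genes, was 3.33-fold higher. Hhex, a homeobox gene needed for the liver bud, read 555.9 in mesothelial cells, against 363.6 in liver cells, and its difference of 0.61 lay close to those of Prox1 and Foxa1.

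Among 25 other nuclear receptors, 15 were above the floor, of which 10 were mesothelial-high and 0 liver-high, against 45.4% and 3.83% of all genes, and the median difference over all 25 was 0.99. After centring on array medians the numbers were 4 and 0, against 23.9% and 9.25%, again close to the mesothelial-high share of all genes. The orphan receptor Nr2f1 was 19.1-fold higher, the vitamin D receptor Vdr 6.31-fold and the thyroid hormone receptor Thra 6.10-fold. The SD of the differences was 1.11 for 2 probe sets of Vdr and 1.01 for 3 of Thra. Rxra, the partner with which NR1H4 binds DNA, read 832.6 in mesothelial cells, against 316.6 in liver cells, 2.63-fold higher. The glucocorticoid receptor Nr3c1 differed by 0.11. Nr0b2 (SHP), a target of NR1H4, lay under the floor at 16.8 in mesothelial cells, against 23.7 in liver cells. The paralogues Hnf4g, at 25.8 in mesothelial and 38.2 in liver cells, and Nr5a1, at 12.4 on both arrays, also lay under the floor. Of 10 receptor cofactors 5 were mesothelial-high and 0 liver-high, near the 45.4% and 3.83% of all genes. They included Ncoa1 at 5.25-fold, Ppargc1b at 3.62-fold and Ncoa2 at 2.95-fold, while the corepressor Nrip1 read 1432.5 in mesothelial cells, against 1698 in liver cells. The SD between 3 probe sets of Ncoa1 was 1.38, and after centring on array medians 2 cofactors were mesothelial-high, against 23.9% of all genes.

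Bile acid genes, the known targets of NR1H4 and NR5A2, went both ways. Of 10 above the floor among 16 measured, 5 were mesothelial-high and 2 liver-high, against 45.4% and 3.83% of all genes, so the mesothelial-high share was near that of all genes. The median difference of the 16 was 0.92. After centring on array medians the numbers were 3 and 3, against 23.9% and 9.25%. Slc27a5, an enzyme that activates bile acids, was 3.65-fold higher in mesothelial cells. Cyp7a1, the rate-limiting enzyme of bile acid synthesis, was under the control level in mesothelial cells at 10.8 and read 47.4 in liver cells, which bounds the liver excess at 2.93-fold or more. Its 2 probe sets differed with an SD of 1.37. The bile acid uptake transporter Slc10a1 read 115.8 in mesothelial cells, against 443.3 in liver cells, 3.83-fold higher in liver cells. Among the hepatocyte genes, the urea cycle enzyme Cps1 was 7.64-fold higher in mesothelial cells, the tryptophan enzyme Tdo2 was 4.22-fold higher in liver cells (SD 1.10, 3 probe sets), and the plasma protein gene Apoh was 2.52-fold higher in mesothelial cells (SD 1.06, 2 probe sets). Single targets thus lay further to either side than any of the 10 factors.

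**Figure D5:**
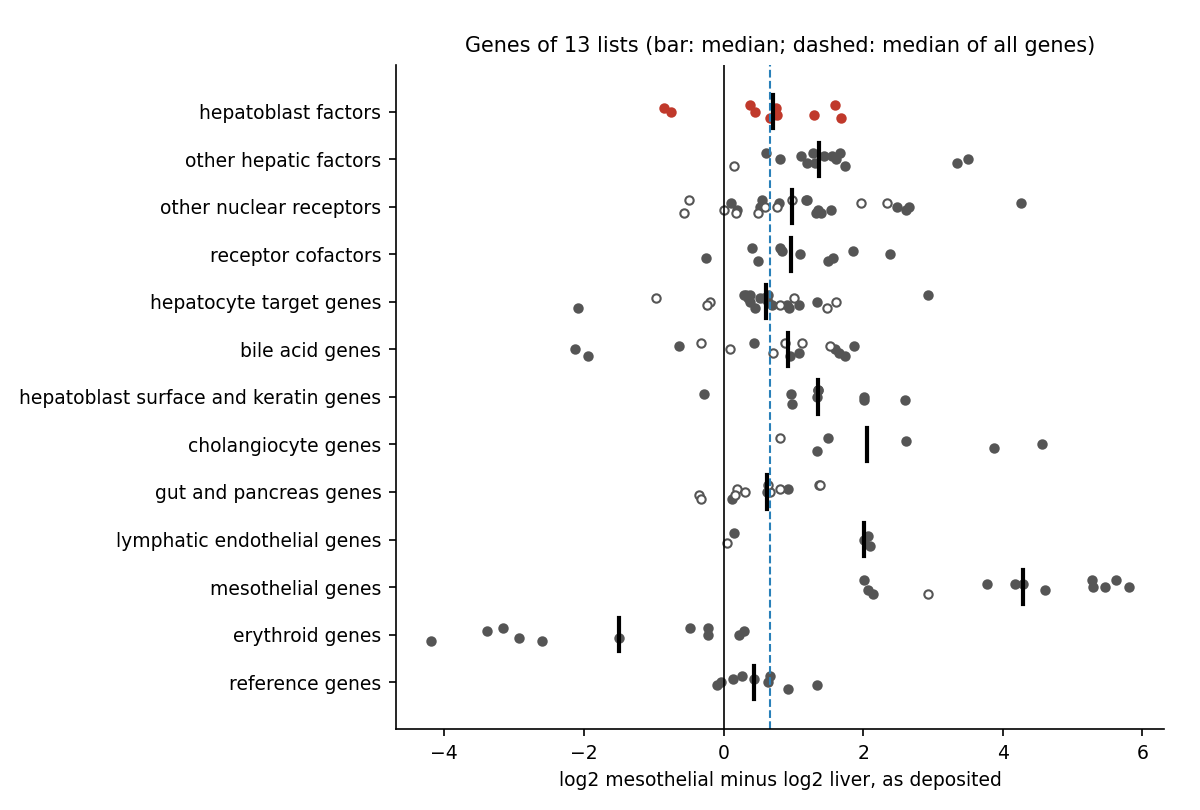
Log2 difference, mesothelial minus liver, as deposited (horizontal axis), of every measured gene of 13 lists (rows), with filled points for genes above the floor and open points under it. Bars are list medians and the dashed line is the median of all genes, 0.66. The 10 hepatoblast factors (red), all above the floor, centre near the dashed line with a median of 0.71, below the 0.90 of all genes above the floor. Mesothelial genes lie far to the right and erythroid genes to the left.

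Several of the factors are also known outside the liver, so markers of those tissues were read beside them. Of 13 gut and pancreas genes, relevant for the FOXA, ONECUT and NR5A2 genes, 3 were above the floor. Of these 0 were mesothelial-high or liver-high, against 45.4% and 3.83% of all genes. At the control level were 6 of 13 in mesothelial cells, against 7 in liver cells, and the pancreatic factor Ptf1a was at 8.7 in mesothelial cells, under that level, and at 11.1 in liver cells. The other pancreatic factors also lay under the floor and went both ways. Nkx2-2 was at 5.7 in mesothelial and 7.1 in liver cells. It was at control level on both arrays, as were Neurog3 and Neurod1. Pdx1 was at 22.8 in mesothelial cells and under the control level at 8.8 in liver cells. On the deposited scale alone, this bounds its mesothelial excess at 2.17-fold or more. Centring on array medians took its difference from 1.37 to 0.74, and the SD between its 2 probe sets was 1.06. Its mesothelial value was also not far above the control level of 16.2 on that array. Nkx6-1 was at 47.4 in mesothelial and 30.5 in liver cells, a difference of 0.64, against 0.66 for the median of all genes. The summed intensity was 787.1 in mesothelial cells, against 509.7 in liver cells, and Fabp2 and Lgals4 were brightest. Lymphatic endothelium expresses Prox1 and Pdpn, and of 4 of its genes above the floor, 3 were mesothelial-high, against 45.4% of all genes. These were Flt4 and Nrp2 at 4.20-fold and 4.27-fold, and Reln at 4.05-fold (SD 1.98, 2 probe sets). Lyve1 gave 432.8 in mesothelial and 389.8 in liver cells. Sox18 lay under the floor at 22.3 in mesothelial and 21.5 in liver cells, and the summed intensity of the 5 measured was 4746 in mesothelial cells, against 1453 in liver cells. All 5 bile duct genes above the floor, of 6 measured, were mesothelial-high, against 45.4% of all genes. Krt7 was at 23.6-fold and Krt19 at 14.7-fold, keratins that mesothelium also expresses, while Cftr was at control level on both arrays. The summed intensity of the 6 bile duct genes was 5616 in mesothelial cells, against 767.1 in liver cells. Of 9 hepatoblast surface and keratin genes 6 were mesothelial-high, against 45.4% of all genes. Prom1 led at 6.07-fold, and Cd24a read 9780 in mesothelial cells, against 11824 in liver cells. After centring on array medians 3 lymphatic, 3 bile duct and 3 surface and keratin genes were mesothelial-high, against 23.9% of all genes. The part of these cell types in the readings of Prox1, the FOXA genes and the ONECUT genes was not tested.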

How the data were processed

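RNA of 1 sample of mesothelial cells and 1 of liver cells was amplified from 20 ng and labelled with biotin by NuGEN Ovation kits, per the labels' protocols. The files deposited by the authors hold 1 intensity per probe set, linear to judge by their range. RMA and Partek appear in the submitters' processing notes, without version or role. The quantiles of the 2 arrays differ, so no common distribution had been imposed on them, and their scaling is unknown. Precision is limited by having 1 array per group.

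The planned tests allowed for log or linear values, and log2 was taken here with no offset. Of 45101 probe sets, 34945 had 1 symbol, 932 several, 9160 none, and 64 were controls. Of those with 1 symbol, 34741 matched a RefSeq gene ID (GRCm38.p6, used for names) and 0 were renamed. Where a gene had several probe sets, the one brightest by mean log2 was used. The floor was the median (percentile 50) of each array. Genes above it with a log2 difference of at least 1 were counted. The control level was the highest of 27 bacterial probe sets, 16.2 in mesothelial and 10.5 in liver cells. Where a gene's lower value lay under it, the fold was computed against it on the deposited scale and written as a bound (N-fold or more).

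Named genes were every member, a set of further genes in every case (Hhex, Nr0b2, Rxra, Nr5a1, Hnf4g, Onecut3, Alb, Afp, Ttr, Pdpn and Wt1) and, of each of 12 other lists, the 3 genes with the largest difference and the 1 furthest the other way, some of which are not reported here. Sox18, Cftr, Ptf1a, Pdx1, Nkx6-1, Nkx2-2, Neurog3, Neurod1, Tal1, Klf1 and Epor were added after their values were seen. The members and lists were chosen with earlier results of these data known. The calling code was run on simulated data with 4-fold changes and little noise, after median centring and quantile normalization. That run does not bear on the precision of the calls here. Alternatives were other scalings, floors, thresholds and probe set choices, those on hybridisation controls, paired differences and low values chosen after seeing the data. Python 3.11.15, numpy 2.4.6 and pandas 2.3.3 were used.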

Additional observations from a re-analysis of the deposited data

How the results depend on the processing

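The median difference of the 10 factors, 0.71 as deposited, was 0.52 with the median over probe sets and 0.07 after centring on all probe sets. It was -0.12 by quantile normalization, -0.41 by centring on reference genes and -0.37 by centring on hybridisation controls, the last chosen after seeing the data, so its sign depended on the scaling. Removing the median paired difference of the reference genes or of the controls, also chosen after seeing the data, gave 0.27 and 0.69. The number of mesothelial-high factors, 3 as deposited, was 1 after centring on all probe sets (Nr1h4), 1 by quantile normalization (Nr1h4) and 0 by centring on reference genes or on hybridisation controls. It was 1 with a floor at the 75th percentile (Hnf4a) and 0 at a 4-fold threshold. Without probe sets ending in _x_at or _s_at, with the median over probe sets, and with low values set to the control level it was 3. The number of liver-high factors, 0 as deposited, was 2 (Onecut1 and Onecut2) after centring on all probe sets, on reference genes or on hybridisation controls, by quantile normalization and after removing the paired difference of reference genes, and 1 (Onecut1) with the median over probe sets. The median over probe sets was taken on each array, so it can set different probe sets of a gene against each other, as it did for Onecut2 (-0.18), and it gave -0.18 for Prox1. The median of the differences of single probe sets was 0.07 for Prox1 and -0.03 for Onecut2, and for Onecut1 both ways gave -1.57. No paired analysis was possible because each group had 1 array, and no replicate could be left out for the same reason. Probe sets near the bacterial controls, such as 1421447_at of Onecut1 and 1421336_at of Prox1, are limited by background.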

Other observations

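Genes whose 2 values lay nearest to a member, by Euclidean distance of log2 intensities over 2 arrays, were named as a description of likeness. Nearest to Hnf4a were Supt20, Fam3c and Lpl at distances of 0.04, 0.04 and 0.06, with 63 named genes within 0.25. Nearest to Nr1h4 were N6amt1, Hook2 and Gdpd3, at distances from 0.02 to 0.03, and nearest to Foxa3 were Npc1, Nr2c1 and Arrdc4, at distances from 0.01 to 0.03. Nr2c1, a nuclear receptor, gave 303.5 in mesothelial cells, against 120.6 in liver cells. Nearest to Onecut1 were Fpr2, Cylc1 and Ms4a6b, at distances from 0.04 to 0.09, and nearest to Onecut2 were Fbxo4, Adhfe1 and Zfp957, at distances from 0.10 to 0.13. For Prox1, 207 named genes lay within 0.25, Tent2, Ints8 and Wdr1 nearest. With 2 arrays such neighbours share a pair of intensities and no more.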
